A study of Mus musculus with 6 samples.

Results

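Interleukin-18, the inflammasome that matures it and the NF-kB system were followed in cultured mouse small-intestinal organoids as a set of 10 genes: Il18, Casp1, Nlrp6, Cxcl16, Nos2, Relb, Nfkb1, Nfkb2, Nfkbia and Tnfaip3. They were taken by symbol from a table of 24594 genes, each symbol gave 1 row, and all 10 were among the 12592 genes that passed the filter on low counts. Organoids are epithelial cultures that form crypt-like buds and villus-like regions. They had grown from single cells for 96 h and then received NIBR-LTSi at 5 uM, or DMSO in a corresponding amount, for 24 h. NIBR-LTSi blocks LATS1 and LATS2, the Hippo pathway kinases that restrain the co-activators YAP and TAZ. Both groups had 3 libraries, named by the replicate number of the labels, and the labels name no mouse strain, genotype or age.

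Interleukin-18 is made as an inactive precursor that gut epithelial cells keep in store. Sensors such as NLRP6 can assemble an inflammasome through the adaptor ASC, which activates caspase-1, and caspase-1 cuts both the precursor and the pore-forming protein gasdermin D. NF-kB is a family of dimeric transcription factors held in the cytoplasm by inhibitors such as IkB-alpha, whose gene Nfkbia is itself an NF-kB target, as are Tnfaip3, Relb, Nfkb1 and Nfkb2. In the gut epithelium this system links microbial and cytokine signals to chemokines, antimicrobial effectors and survival genes.

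With NIBR-LTSi, 4 of the 10 genes rose (Il18, Nlrp6, Cxcl16 and Nos2), 4 fell (Casp1, Relb, Nfkb1 and Nfkbia) and 2 were not called (Nfkb2 and Tnfaip3). The cytokine, the chemokine and the nitric oxide synthase rose by 2.47-fold to 3.84-fold, while the 4 falls lay between 1.11-fold and 1.40-fold. The test was edgeR's quasi-likelihood F-test at an adjusted p under 0.05, which called 42.0% of all tested genes, 22.8% as higher and 19.2% as lower. The genes were chosen with results of these data known, so their count is not set against that share as a test. Their log2 fold changes had a median of 0.14, and those of all tested genes 0.02. The libraries of the 2 groups did not overlap in 9 of the 10 genes, and in 52.5% of all tested genes. The count of falls rested on small changes: leaving out DMSO replicate 1 gave 2 falls, leaving out NIBR-LTSi replicate 1 gave 3, and scaling libraries by their totals alone gave 2.

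**Figure D1:**
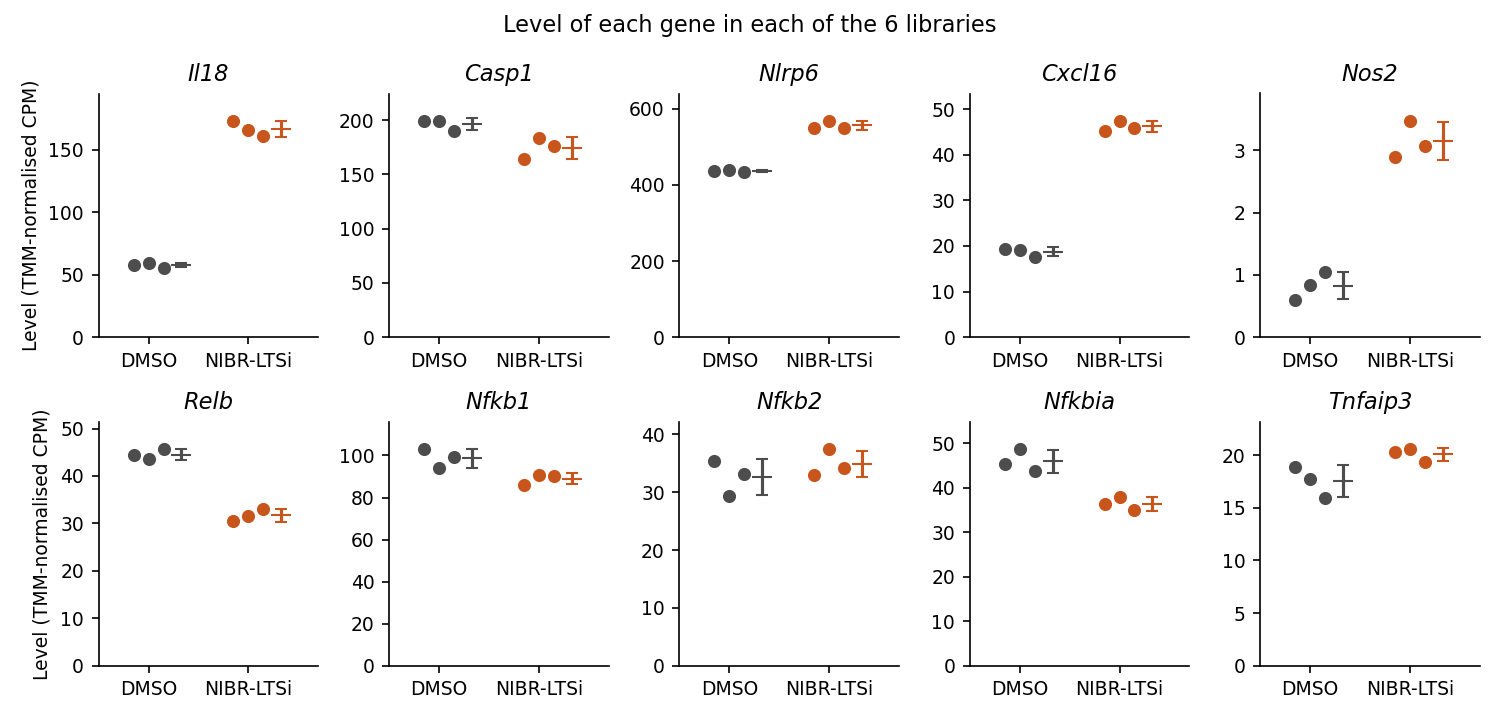
Level of each of the 10 genes (vertical axes from 0, CPM, which are reads of a gene per fixed number of reads after TMM scaling) in the 3 DMSO libraries (grey) and the 3 NIBR-LTSi libraries (orange), in replicate order; the bar beside the points is mean ± SD. Every NIBR-LTSi library lies beyond every DMSO library in 9 of the panels, and in Nfkb2 the groups overlap.

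Total counts were 18395427 to 26767043 per library. The cultures carried the epithelial markers of their label: the summed level of 13 epithelial and small-intestinal markers, among them Epcam, Cdh1, Vil1 and Sis, was 37593 to 38631 CPM with DMSO and 31721 to 34348 CPM with NIBR-LTSi. Of these 13, 4 rose (Krt8, Krt18, Krt19 and Lct), 5 fell (Vil1, Cdx1, Fabp1, Fabp2 and Sis) and 4 were not called, from 3.70-fold higher for Lct, the lactase gene, to 1.96-fold lower for Fabp2, a fatty acid binding protein. That is 69.2% called, against 42.0% of all tested genes. Per kb of gene width, Fabp1, another fatty acid binding protein, had the highest mean level of the 13 in both groups, at 13332 CPM per kb with DMSO and 9315 CPM per kb with NIBR-LTSi. Of 20 immune cell markers in the table, 10 had no count in any library, among them Cd3e, Itgax and Nkg7, and Ptprc, the pan-leukocyte gene, had 3 counts in all 6 libraries together. The summed immune markers were at 17.3 to 18.1 CPM with DMSO and 17.6 to 21.0 CPM with NIBR-LTSi, most of it from Itgam and Kit, and none of the 4 that were tested was called. Of 14 stromal and endothelial markers 5 had no count, and their sum was 3.07 to 4.63 CPM over the 6 libraries. In whole cultures, fewer cells of a type and less RNA per cell cannot be told apart.

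The sequences just upstream of 4 of the genes are shown because these genes stand for the main behaviours: Il18 and Nlrp6 rose, Nfkbia fell, and Tnfaip3, another feedback inhibitor, was not called. They come from a set of windows at RefSeq starts (GRCm38.p6), which held 6 of the 10 genes. The set had no entry for Cxcl16, Nos2, Relb and Nfkb1, although RefSeq gives positions for these genes too. Each line is read 5′ to 3′ on the gene's strand and ends at the base before the annotated start, and capitals mark matches, on either strand, to the kB consensus of NF-kB, to the TEAD motif GGAATG or to the AP-1 motif TGANTCA. The positions are chr9:50554450-50554699 (plus strand) for Il18, chr7:140920652-140920901 (plus) for Nlrp6, chr12:55492648-55492897 (minus) for Nfkbia and chr10:19015411-19015547 (minus) for Tnfaip3, the last cut to 137 bases where an annotated exon begins.
Il18: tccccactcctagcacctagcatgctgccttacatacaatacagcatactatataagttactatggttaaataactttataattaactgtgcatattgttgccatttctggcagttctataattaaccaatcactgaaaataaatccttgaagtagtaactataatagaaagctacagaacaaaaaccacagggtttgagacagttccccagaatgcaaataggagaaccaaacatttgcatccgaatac
Nlrp6: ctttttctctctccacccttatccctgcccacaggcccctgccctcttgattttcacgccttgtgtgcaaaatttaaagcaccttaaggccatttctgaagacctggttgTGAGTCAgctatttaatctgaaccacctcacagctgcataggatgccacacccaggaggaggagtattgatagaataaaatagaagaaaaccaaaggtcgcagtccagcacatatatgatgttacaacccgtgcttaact
Nfkbia: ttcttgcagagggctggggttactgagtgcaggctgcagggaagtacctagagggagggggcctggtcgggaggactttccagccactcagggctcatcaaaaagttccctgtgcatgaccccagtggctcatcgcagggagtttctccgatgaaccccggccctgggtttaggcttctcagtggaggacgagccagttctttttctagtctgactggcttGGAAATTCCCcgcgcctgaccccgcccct
Tnfaip3: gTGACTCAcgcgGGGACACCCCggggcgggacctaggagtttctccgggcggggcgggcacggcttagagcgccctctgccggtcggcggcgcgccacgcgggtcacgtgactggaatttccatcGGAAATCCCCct

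Within 250 bases of the start, a kB match was found in 7.25% of 32851 RefSeq windows of this length, a TEAD match in 12.6% and an AP-1 match in 6.75%. The Nfkbia window held 1 kB match, 29 to 20 bases upstream. Tnfaip3 has 2 listed starts. The window of the first held 2 kB matches, at 125 to 116 and at 12 to 3 bases upstream, and 1 AP-1 match at 136 to 130. The window of the second held no match to any of the 3 motifs. Nfkb2, with 3 listed starts, had a kB match in each window, such as GGGACTTTCC at 225 to 216 bases before the last start, and 1 of these matches overlapped a TEAD match. The Nlrp6 window held 1 AP-1 match, and those of Il18 and Casp1 held none of the 3 motifs. The Il18 window had a GC content of 35.6%, against 59.2% for Nfkbia. These matches are letters in a window, and binding was not measured.

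Il18 (chromosome 9, 50554700 to 50581841), the cytokine itself, showed the smallest p of the 10. Replicates 1 to 3 of the DMSO group had levels of 57.9, 59.4 and 55.7 CPM, and those of the NIBR-LTSi group 173, 166 and 161 CPM. The groups were far apart and each was tight, with coefficients of variation of 3.23% and 3.85%. The rise was 2.89-fold (95% interval 2.69 to 3.10; adjusted p = 9.09e-10), and 165 of the 12592 tested genes, Il18 included, rose by this much or more. Bco2 and Tex12 overlap the gene on the opposite strand, without overlapping exons in the annotation.

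Nlrp6 (chromosome 7, 140920902 to 140929192), the sensor, was the most abundant of the 10 per length in DMSO, at 85.9 CPM per kb of gene width. It was at 436, 438 and 434 CPM with DMSO and at 549, 569 and 551 CPM with NIBR-LTSi. The DMSO libraries were nearly level (coefficient of variation 0.462%) and all 3 treated libraries were higher. This gave a 1.28-fold rise (95% interval 1.21 to 1.34; adjusted p = 4.82e-06).

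Casp1 (chromosome 9, 5298517 to 5307281), the protease that cuts the precursor, did not rise with its substrate. It was at 199, 199 and 190 CPM with DMSO and 164, 184 and 176 CPM with NIBR-LTSi, so that every treated library was lower, by a small margin in replicate 2. The fall was 1.12-fold (log2 fold change -0.17 ± 0.05 SE; adjusted p = 0.0128). It was not called without DMSO replicate 1 (adjusted p = 0.0593) or with library totals alone (0.0668), and over the 13 alternatives the adjusted p ran from 0.00284 to 0.0668.

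In the wider list of inflammasome sensors, adaptor and pore genes, 5 of 18 tested members rose, 4 fell and 9 were not called (median log2 fold change 0.02). The share called was 50.0%, against 42.0% of all tested genes. Gsdmd, which encodes the pore protein cut by caspase-1, was at 172, 161 and 160 CPM with DMSO and 293, 308 and 298 CPM with NIBR-LTSi, a rise of 1.82-fold (adjusted p = 2.20e-08). Pycard, the gene of the adaptor ASC, rose from a mean of 311 to 364 CPM (log2 fold change 0.23, adjusted p = 0.00260), named after its value was seen. Naip1, a NAIP-family sensor, rose 1.21-fold, while its relative Naip2 fell 1.16-fold (adjusted p = 0.00197) and Naip5 and Naip6 were not called; reads may be split among these near-identical genes, and the last 3 were named after their values were seen. Gsdmc4, also of a family of close copies, was low and went from 0.722 ± 0.081 to 2.27 ± 0.23 CPM (SD, n = 3), a rise of 3.14-fold.

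The members of that list that fell included other sensors. Nlrp9b, an NLR of intestinal epithelium, was at 10.3, 7.94 and 8.50 CPM with DMSO and 3.46, 4.38 and 4.39 CPM with NIBR-LTSi, a fall of 2.18-fold (adjusted p = 4.47e-05). Nlrc4, the partner of NAIP sensors, fell 1.23-fold and Casp8, a caspase of the death-receptor pathway, 1.19-fold. Aim2, a DNA sensor, and Casp4, the caspase that senses lipopolysaccharide, were at means of 4.99 and 29.8 CPM with DMSO and were not called. Nlrp3 had 7 counts in all and Nlrp1a, Nlrp12 and Mefv had none; Aim2, Casp4 and these 4 genes were picked once their values had been seen.

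**Figure D2:**
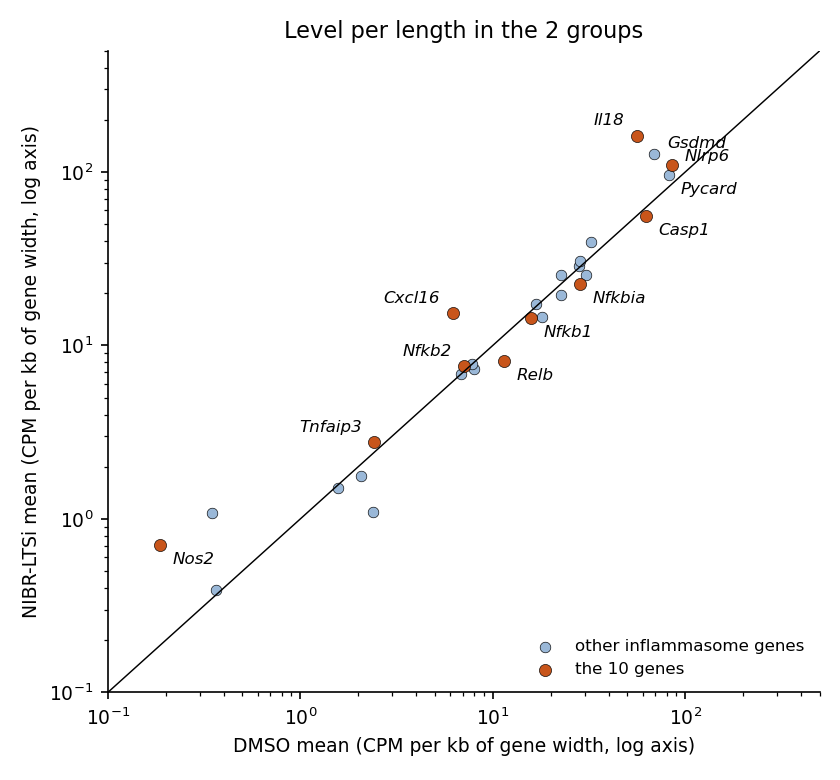
Mean level per kb of gene width in DMSO (horizontal, log axis) and in NIBR-LTSi (vertical, log axis) for the 10 genes (orange) and the tested genes of the inflammasome list (blue); the line marks equal levels. Il18, Cxcl16 and Nos2 stand furthest above the line among the 10, and Gsdmd, Pycard, Nlrp6, Casp1 and Il18 form the group of high levels.

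Per kb of the deposited gene width, the order in DMSO was Nlrp6 (85.9 CPM per kb), Casp1 (62.5), Il18 (56.0), Nfkbia (28.5), Nfkb1 (15.9), Relb (11.5), Nfkb2 (7.11), Cxcl16 (6.19), Tnfaip3 (2.43) and Nos2 (0.186). The libraries of Nfkb2 (6.39 to 7.72) and Cxcl16 (5.82 to 6.42) overlapped, and no other neighbours in this order did. With NIBR-LTSi, Il18 stood first at 162 CPM per kb, ahead of Nlrp6 at 109, and Cxcl16 at 15.3 had moved above Nfkb1 at 14.3. Relb (7.83 to 8.53) and Nfkb2 (7.21 to 8.17) then overlapped.

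The other ligands and receptors of the IL-1 family were mostly scarce. The list also held adaptors and kinases below the receptors, such as Myd88 and Irak1 at means of 29.2 and 58.7 CPM with DMSO. These 2 were named after their values were seen. Of the list's 22 genes with a row, 12 were tested, of which 4 rose, 2 fell and 6 were not called (median log2 fold change 0.09). Among the calls, Irak1 rose and Irak4 fell. Only 2 genes rose in DESeq2 and without NIBR-LTSi replicate 3. Calls made up 50.0% of the tested genes of the list, against 42.0% of all tested genes. Il33, a nuclear alarmin, was at 1.48, 0.722 and 0.945 CPM with DMSO and 4.23, 4.54 and 4.53 CPM with NIBR-LTSi, a rise of 4.12-fold (adjusted p = 2.50e-05). Il1rn, the interleukin-1 receptor antagonist, rose 1.61-fold to 6.96 ± 0.82 CPM. The receptor gene Il1rap rose 1.29-fold (adjusted p = 0.0367), a call kept in only 7 of the 13 alternatives (largest adjusted p 0.166). Irak4, the first kinase below the receptors, fell 1.32-fold, and Sigirr, an inhibitory receptor of the family, 1.16-fold. Il18bp, the secreted trap for interleukin-18, was at 2.69 and 2.79 CPM (adjusted p = 0.857), its receptor gene Il18r1 was at 0.791 and 0.555 CPM (adjusted p = 0.206) and Il1b had no count. These last 3 were named after their values were seen.

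Cxcl16 (chromosome 11, 70454389 to 70459984) encodes a chemokine made as a membrane protein and shed by proteases. It was at 19.4, 19.1 and 17.6 CPM with DMSO and at 45.2, 47.5 and 46.0 CPM with NIBR-LTSi. The groups were widely separated, and the rise was 2.47-fold (95% interval 2.26 to 2.71; adjusted p = 1.57e-08). Its exons overlap those of Zmynd15 on the opposite strand, and the strand setting of the counting is not given in the sources used here. Zmynd15 had 12 to 79 counts per library, against 344 to 1257 for Cxcl16, and rose 2.45-fold (adjusted p = 0.00513). The kit was stranded, but whether the counting told reads of the pair apart where they overlap is not known.

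Of the genes that act on CXCL16, its receptor gene Cxcr6 had no count, and of the other 4, Rhbdf1 and Adam17 rose, Rhbdf2 fell and Adam10 was not called. That is 75.0% called of only 4 genes, against 42.0% of all tested genes. Rhbdf1, which encodes the ADAM17 regulator iRhom1, rose 1.73-fold and its relative Rhbdf2 fell 1.23-fold. The sheddase gene Adam17 rose 1.15-fold (adjusted p = 0.0227), a call lost in DESeq2 and on leaving out replicate 2 of either group or NIBR-LTSi replicate 3, with a largest adjusted p of 0.117. Adam10, the other sheddase, was at means of 154 and 160 CPM (adjusted p = 0.367), named after its value was seen.

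Nos2 (chromosome 11, 78920787 to 78960226), the inducible nitric oxide synthase, had the largest fold change and the fewest reads of the 10. The DMSO libraries held 15, 15 and 22 reads of it and the NIBR-LTSi libraries 56, 85 and 84, or 0.601, 0.833 and 1.04 CPM against 2.89, 3.48 and 3.07 CPM. Each treated library was above each control, and the low counts left a wide interval. The rise was 3.84-fold (95% interval 2.67 to 5.52; adjusted p = 4.89e-05).

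Around Nos2, 1 of 14 tested genes of nitric oxide handling rose and 4 fell (median log2 fold change -0.12). The share called was 35.7%, against 42.0% of all tested genes. The arginine importer gene Slc7a1 rose 1.45-fold, from 84.8 ± 10.3 to 123 ± 4 CPM (adjusted p = 5.32e-04). Arg2, which encodes the arginase that competes for the same substrate, fell 1.16-fold from 735 ± 34 CPM. Slc7a7, an exporter of basic amino acids, fell 1.13-fold. Spr, an enzyme of tetrahydrobiopterin synthesis, fell 1.12-fold, a call lost with library totals alone and on leaving out DMSO replicate 1 or 2 or NIBR-LTSi replicate 3. The largest of the 4 falls was that of Nox1, an NADPH oxidase gene at a low level, from a mean of 1.56 to 0.370 CPM (4.09-fold; adjusted p = 9.83e-04), named after its value was seen.

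**Figure D3:**
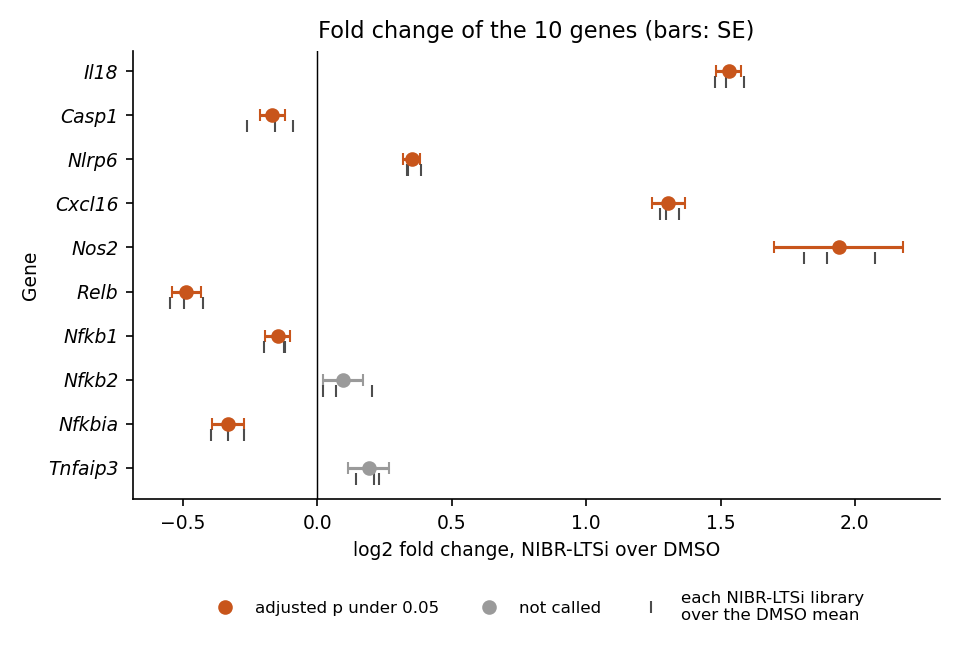
Log2 fold change of NIBR-LTSi over DMSO (horizontal) for each of the 10 genes (vertical), with SE bars; orange points have an adjusted p under 0.05, grey points do not, and ticks show each NIBR-LTSi library over the DMSO mean. Il18, Cxcl16 and Nos2 lie above 1, and the genes of NF-kB subunits and inhibitors lie between -0.49 and 0.19.

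Of the NF-kB subunit genes, Relb and Nfkb1 fell and Nfkb2 was not called. Relb (chromosome 7, 19606217 to 19629438), the transactivating partner of p52, was at 44.3, 43.6 and 45.7 CPM with DMSO and 30.4, 31.6 and 33.1 CPM with NIBR-LTSi. The groups were clearly separated, with a fall of 1.40-fold (log2 fold change -0.49 ± 0.06 SE; adjusted p = 2.39e-05). Nfkb1 (chromosome 3, 135584655 to 135691969), the gene of p105 and p50, was at 103, 93.8 and 99.1 CPM and at 86.1, 90.7 and 90.4 CPM. Its groups nearly touched, and the 1.11-fold fall (adjusted p = 0.0250) was not called on leaving out DMSO replicate 1 (0.125) or NIBR-LTSi replicate 1 (0.0664), nor with library totals alone (0.120), in a range over the 13 alternatives from 0.0105 to 0.125.

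Nfkb2 (chromosome 19, 46300994 to 46312400), the gene of p100 and of the p52 that pairs with RelB, did not follow Relb downward. It was at 35.4, 29.3 and 33.2 CPM with DMSO and 33.0, 37.5 and 34.2 CPM with NIBR-LTSi, and the groups overlapped. The ratio of the groups was 1.07 with a 95% interval of 0.953 to 1.20 (adjusted p = 0.342). Psd and AC114539.1, a long non-coding RNA gene, overlap the exons of Nfkb2 on the opposite strand. Psd had 18 to 47 counts per library.

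In the list of NF-kB kinases and other subunits, 4 of 18 tested genes rose, 6 fell and 8 were not called (median log2 fold change -0.04). Calls made up 55.6% of the list, against 42.0% of all tested genes. The count of rises was 2 with DESeq2 size factors, in DESeq2, with the replicate block and on leaving out replicate 2 or 3 of either group. Card10, an adaptor that links surface receptors to the IKK complex, rose 1.47-fold (adjusted p = 2.22e-04), and Tab3, a partner of the kinase TAK1, rose 1.40-fold. Ikbkb, the kinase IKK-beta, rose 1.13-fold, a call lost in 8 of the 13 alternatives (largest adjusted p 0.171). Sharpin and Rbck1, components of the linear ubiquitin ligase that activates IKK, fell 1.33-fold and 1.20-fold, and Tbk1, an IKK-related kinase, fell 1.21-fold. Rela, the main transactivating subunit, was at means of 42.7 and 38.9 CPM (adjusted p = 0.0822), named after its value was seen.

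Nfkbia (chromosome 12, 55489409 to 55492647), the gene of IkB-alpha, fell while the other feedback inhibitor of the 10, Tnfaip3, was not called. Nfkbia was at 45.4, 48.7 and 43.7 CPM with DMSO and 36.4, 38.0 and 34.9 CPM with NIBR-LTSi, with no overlap between the groups. The fall was 1.26-fold (log2 fold change -0.33 ± 0.06 SE; adjusted p = 7.82e-04). Tnfaip3 (chromosome 10, 19000910 to 19015410), the gene of the ubiquitin-editing enzyme A20, was at 18.9, 17.8 and 16.0 CPM and at 20.3, 20.6 and 19.4 CPM. All 3 treated libraries were above the controls, by a margin smaller than the spread among the DMSO libraries. The ratio was 1.14 (95% interval 1.02 to 1.28, unadjusted; adjusted p = 0.0631), and it was called without DMSO replicate 1 (0.0413) and with library totals alone (0.0286), in a range over the alternatives from 0.0286 to 0.230.

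Among 22 other tested NF-kB inhibitors and feedback genes, 2 rose, 4 fell and 16 were not called (median log2 fold change -0.10). The share called was 27.3%, against 42.0% of all tested genes. Without DMSO replicate 1, 1 fell, and 6 fell in limma-voom and without NIBR-LTSi replicate 1. Zfp36, which encodes an RNA-binding protein that shortens the life of cytokine messages, was at 538, 543 and 511 CPM with DMSO and 342, 387 and 390 CPM with NIBR-LTSi, a fall of 1.42-fold (adjusted p = 1.25e-05). Nfkbib, the gene of IkB-beta, fell 1.17-fold, a call lost without DMSO replicate 1 or NIBR-LTSi replicate 2. Otud7b, a deubiquitinase that restrains non-canonical NF-kB, rose 1.28-fold. The ubiquitin ligase gene Itch rose 1.13-fold, a call lost without NIBR-LTSi replicate 3. Trib3, a pseudokinase of stress responses, fell 1.19-fold, a call lost without DMSO replicate 1.

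Of 20 tested receptor and adaptor genes for TNF, lymphotoxin, interleukin-17 and Toll-like signals, 2 rose, 6 fell and 12 were not called (median log2 fold change -0.09). The share called, 40.0%, was near the 42.0% over all tested genes. Tnfrsf1a, the main TNF receptor, was at 215, 224 and 212 CPM with DMSO and 167, 163 and 154 CPM with NIBR-LTSi, a fall of 1.34-fold (adjusted p = 8.27e-06). The interleukin-17 receptor chain gene Il17rc and the RANK gene Tnfrsf11a each fell 1.33-fold. Against these, Tnfrsf12a, the receptor for TWEAK, rose 2.02-fold from 12.5 ± 1.4 to 25.3 ± 1.3 CPM (adjusted p = 2.32e-06), and Ripk3, the kinase of necroptosis, rose 1.24-fold.

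Of 44 chemokines and NF-kB target genes, 22 were tested: 1 rose, 10 fell and 11 were not called (median log2 fold change -0.24). Calls made up 50.0% of those tested, against 42.0% of all tested genes, of which 22.8% were higher and 19.2% lower. Tnfaip2, a TNF-induced gene, rose 2.79-fold from 1.07 ± 0.02 to 3.01 ± 0.23 CPM (adjusted p = 8.79e-05). Cxcl11, a ligand of CXCR3, was at 3.48, 2.94 and 2.41 CPM with DMSO and 0.723, 0.614 and 0.804 CPM with NIBR-LTSi, a fall of 4.11-fold (adjusted p = 3.68e-05). Gadd45b, a stress-induced gene, fell 1.82-fold and Ccl20, a chemokine that attracts lymphocytes and dendritic cells, 1.53-fold. No more than 42 counts over the 6 libraries were found for Tnf, Cxcl1, Cxcl2, Icam1 and Lcn2, and Il6 had none; these 6 were named after their values were seen.

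**Figure D4:**
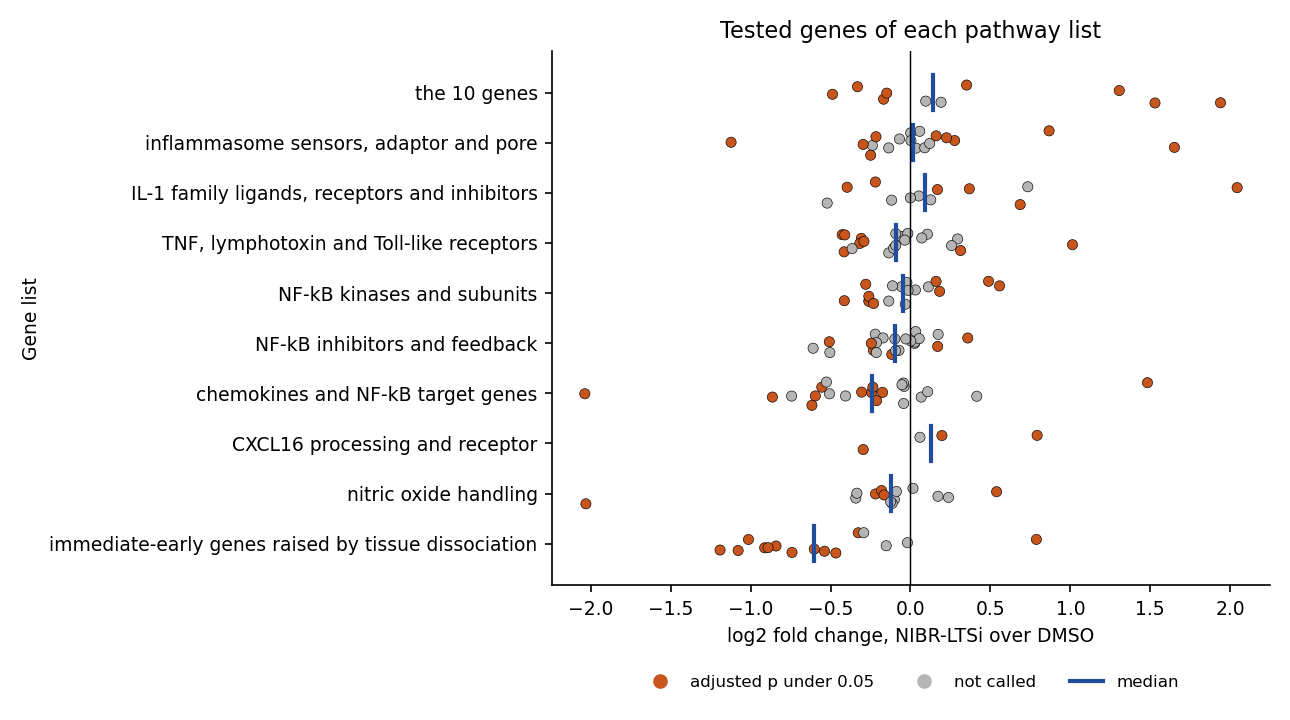
Log2 fold change (horizontal) of every tested gene in each pathway list (vertical), with orange points at an adjusted p under 0.05, grey points not called and a blue bar at the list's median. The 10 genes are in the top row; the medians run from 0.14 there to -0.24 for chemokines and NF-kB targets and -0.60 for immediate-early genes.

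Like Nfkbia, Relb and Zfp36, most of the immediate-early genes examined were lower with NIBR-LTSi, while Nfkb2 and Tnfaip3 were not called. Whether these genes varied together from library to library was not tested. The organoids were digested to single cells before RNA was extracted, a step known to induce such genes. Of 15 of them, 11 fell, 1 rose and 3 were not called (median log2 fold change -0.60), and their summed level was 3196 to 3353 CPM with DMSO and 1908 to 2083 CPM with NIBR-LTSi. The share called was 80.0%, against 42.0% of all tested genes. Egr1, a serum-response transcription factor, fell 2.28-fold, Btg2, an antiproliferative gene, 2.11-fold and Fosb, an AP-1 subunit, 2.02-fold (a call lost with the replicate block), while the heat-shock gene Hspa1b, a near copy of Hspa1a, rose 1.73-fold. Their part in the NF-kB results was not tested.

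Markers of the epithelial lineages also moved, and their part in these results was not tested. The summed level of 9 Paneth cell markers was 578 to 641 CPM with DMSO and 464 to 522 CPM with NIBR-LTSi, with 2 of 8 tested members higher and 3 lower. For 8 goblet cell markers the sums were 2872 to 3232 and 3250 to 3574 CPM, with 2 higher and 1 lower. Their median log2 fold change was -0.11, and the higher sum rested on Clca1, which went from a mean of 234 to 792 CPM. Zg16 rose 1.33-fold and Spink4 fell 1.65-fold. Clca1, Zg16 and Spink4 were named after their values were seen. For 8 tuft cell markers, of which Il25 had no count, the sums were 8.77 to 9.67 and 5.21 to 7.73 CPM, with none of 5 tested members higher and 1 lower. The lower tuft sum rested on Ltc4s, which went from a mean of 4.64 to 1.99 CPM, named after its value was seen. The sums of 9 enteroendocrine markers were 551 to 581 and 441 to 454 CPM, with 1 higher and 4 lower. In the order given, 62.5%, 37.5%, 20.0% and 55.6% of the tested markers of these lists were called, against 42.0% of all tested genes.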

How the data were processed

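RNA from 6 organoid samples (3 per group; 200 ng of total RNA each, in a stranded kit that selects messenger RNA, per the labels' protocols) was sequenced. The authors deposited 1 table of whole-number read counts per gene, with each gene's identifier, symbol and width in bases, per the file headers. The widths of the genes followed here lie below their genomic spans, as exonic widths would. Per the submitters' processing notes the build was mm10 and edgeR was used. Neither the aligner nor the counter or its strand setting is given in the sources used here. Positions and upstream sequences are from RefSeq, assembly GRCm38.p6, the assembly of mm10, which held 99.9% of the identifiers. Gene overlaps are from GENCODE.

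Counts were scaled with TMM factors, filtered with filterByExpr and tested by edgeR (version 4.0.16, R 4.3.3) with its robust quasi-likelihood F-test, two-sided, group as the sole term and 4 residual degrees of freedom, with Benjamini-Hochberg adjustment over all 12592 genes. The standard error is the log2 fold change over the square root of F, and the 95% intervals of fold changes rest on it, without adjustment. Depth was 18395427 to 26767043 counts in a library. Since no label says that replicates came from separate cultures, p-values cover the spread between the 6 samples, and this spread may be technical. No pair of replicates agreed within sampling noise (chi-square per degree of freedom 4.46 to 11.3).

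The 10 genes, the 9 pathway lists and the 7 marker lists were chosen with earlier results of these data known. Beside the 10, up to 3 genes per direction were named in each pathway list, those with the largest fold changes that had no overlap between groups, a mean CPM of 1 or more and an adjusted p under 0.05. Other names are said to be chosen after their values were seen. The 13 alternatives were DESeq2 (version 1.42.0), limma-voom (limma 3.58.1), DESeq2 size factors, library totals alone, no low-count filter, a minimum of 1 CPM in 3 libraries, a block for the replicate number, and leaving out each library in turn.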

Additional observations from a re-analysis of the deposited data

How the results depend on the processing

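No member changed direction under any of the 13 alternatives, and Il18, Nlrp6, Cxcl16, Nos2, Relb and Nfkbia were called under each of them. The number of members that fell was 2 with library totals alone and ranged from 2 to 4 when 1 library was left out; the number that rose was 5 with library totals alone and ranged from 4 to 5. Over all genes, leaving out 1 library gave 2201 to 2768 rises and 1934 to 2340 falls, against 2866 and 2421, and library totals alone gave 3425 and 1921. With the replicate block, 4 members rose and 4 fell and, over all genes, 2687 rose and 2258 fell. The replicate numbers share no stated culture, and the deviations of same-numbered libraries correlated at 0.0482, -0.296 and 0.562, so the numbers are not taken as pairs. DESeq2 called 2206 rises and 2246 falls. Among the pathway lists, the rises moved by over 1.5 times in the kinase list (2, against 4), the IL-1 family (2, against 4), the CXCL16 list (1, against 2), the inhibitors (1, against 2) and the chemokines and targets (2 with library totals alone, against 1), and the falls in the inhibitor list (1 without DMSO replicate 1, against 4). Where Casp1, Nfkb1 and Tnfaip3 crossed the threshold, the cause was not tested. Low counts limit Nos2 and the list genes that were not tested.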

Other observations

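The genes named here were chosen after their values were seen. Tlr3, a receptor for double-stranded RNA, had the highest level of the 7 Toll-like receptor genes examined, with means of 24.2 CPM (DMSO) and 22.0 CPM (NIBR-LTSi; adjusted p = 0.158, edgeR). Tlr2 and Tlr4 were at means under 1 CPM in both groups and were not tested, and Nod2 had 36 counts over the 6 libraries. The homeostatic chemokine Ccl25 averaged 920 CPM with DMSO and 777 with the inhibitor (adjusted p = 5.24e-04, log2 fold change -0.24), and Ccl28, a mucosal chemokine, averaged 333 and 287 CPM (adjusted p = 0.00187, log2 fold change -0.21).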
